A study of Drosophila melanogaster with 9 samples.

Results

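The metallothionein and iron genes described here are 8 genes chosen by name: the metallothioneins MtnA, MtnB, MtnC and MtnD, the ferritin subunits Fer1HCH and Fer2LCH, the transferrin Tsf1 and the metal importer Mvl. All 8 were found by their FlyBase identifiers among the 17611 genes of the count table. The rule that names them uses no measured value, but they were chosen with earlier results of these data known. RNA came from Malpighian tubules, the renal organ of Drosophila melanogaster, in 9 libraries, 3 from each of 3 genotypes. Every group had the driver esg-Gal4, the temperature-sensitive repressor tub-Gal80ts and the marker UAS-GFP, and controls had nothing further. UAS-Yki-3SA, an active form of the growth regulator Yorkie, was added in the group called yki3SA, and UAS-Yki-3SA together with UAS-ITP-i, which targets transcripts of the hormone ITP, in the group called ITP-i. No group had a neutral RNAi transgene. Virgin flies of all groups spent 6 to 8 days at 18 °C and then 8 days at 29 °C. The driver follows esg, a gene known from progenitor cells of the gut and stem cells of the tubule. RNA was taken from 80 tubules per genotype. The labels do not say whether the libraries of a group came from separate flies or dissections, and p-values measure the spread between these libraries, which may be technical.

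Metallothioneins are small cysteine-rich proteins that bind copper, zinc and cadmium, and in the fly their genes are switched on by the metal-responsive transcription factor MTF-1. Insect ferritin is built of heavy chains (Fer1HCH), which oxidise iron, and light chains (Fer2LCH), and it stores iron in the secretory pathway. Transferrin 1 is an iron carrier of the hemolymph that is secreted mainly by the fat body, and Mvl (Malvolio) is the fly member of the Nramp family, which brings divalent metals into cells. The tubule is known as a site of metal storage and excretion in the fly.

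The libraries held 34640437 to 49338340 counts. Markers of the tubule's own cells had counts in every library: the 12 principal cell genes summed to 20428 to 28325 CPM (counts scaled to a common library total) and the 10 stellate cell genes to 1136 to 1546 CPM. In yki3SA against control, 4 of the 12 fell and none rose, and 2 of the 10 fell and 1 rose. In ITP-i against yki3SA, 4 of the 12 and 1 of the 10 rose, and none fell. Over all genes tested, 16.2% rose and 14% fell in the first comparison, and 10.6% and 10.1% in the second. The summed markers of fat body, gut and ovary moved with genotype and were lowest in the yki3SA libraries. The 16 fat body markers summed to 2392 to 5458 CPM in the controls, 223 to 456 CPM in the yki3SA libraries and 1965 to 3559 CPM in the ITP-i libraries, and the 41 gut enterocyte markers to 539 to 1347, 68.2 to 242 and 254 to 630 CPM. The 16 ovary and early embryo markers summed to 120 to 253, 5.55 to 21.0 and 41.6 to 139 CPM, and the 10 hemocyte markers to 258 to 332 CPM over all libraries. Of 9 hemocyte markers tested, 1 rose and 4 fell in yki3SA against control. Re-analysis is marked in the titles of the control and yki3SA libraries alone, so that a batch and the ITP-i genotype cannot be told apart. ITP itself was at 37.0 ± 6.70 CPM in the controls, 68.3 ± 10.4 CPM in the yki3SA group and 58.6 ± 6.20 CPM in the ITP-i group (SD, n = 3), and the ITP-i libraries overlapped the yki3SA libraries (log2 -0.22, adjusted p = 0.35). The yki gene, at 73.3 ± 8.96, 83.0 ± 7.61 and 77.8 ± 9.03 CPM in the same order, overlapped between all groups. Both genes were read in RNA of whole tubules. These levels do not show whether the transgenes acted in the cells where the driver is active.

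Of the 8 genes, 7 had enough counts to be tested, and MtnB did not. In yki3SA against control, MtnA, MtnC and Tsf1 fell and Fer2LCH rose, which is 3 lower and 1 higher of the 7 tested, where 14% of all 10253 genes tested were called lower and 16.2% higher (30.1% in either direction). In ITP-i against yki3SA, Tsf1 and MtnD rose and none of the 7 fell by edgeR, where 10.6% of all genes were called higher and 10.1% lower (20.7% in either direction). At an unadjusted p under 0.05, 4 of the 7 differed there, of which Fer2LCH was lower, and by DESeq2 none was called lower but MtnB. The share of all genes at that unadjusted threshold was not computed, so the count of 4 has no reference. MtnA alone was called in ITP-i against control, where it was lower, beside 4.14% of all genes called lower and 6.37% higher (10.5% in either direction). The median log2 fold change of the 7 was -1.24, 0.26 and 0.08 in these comparisons, beside 0.07, -0.04 and 0.00 over all genes tested. Any 2 of these comparisons share a group of libraries, so their fold changes are not independent. Levels of single genes below are CPM scaled with the TMM factors of edgeR unless stated otherwise, and rose, fell and called stand for an adjusted p (Benjamini-Hochberg, over all tested genes) under 0.05 in edgeR.

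**Figure D1:**
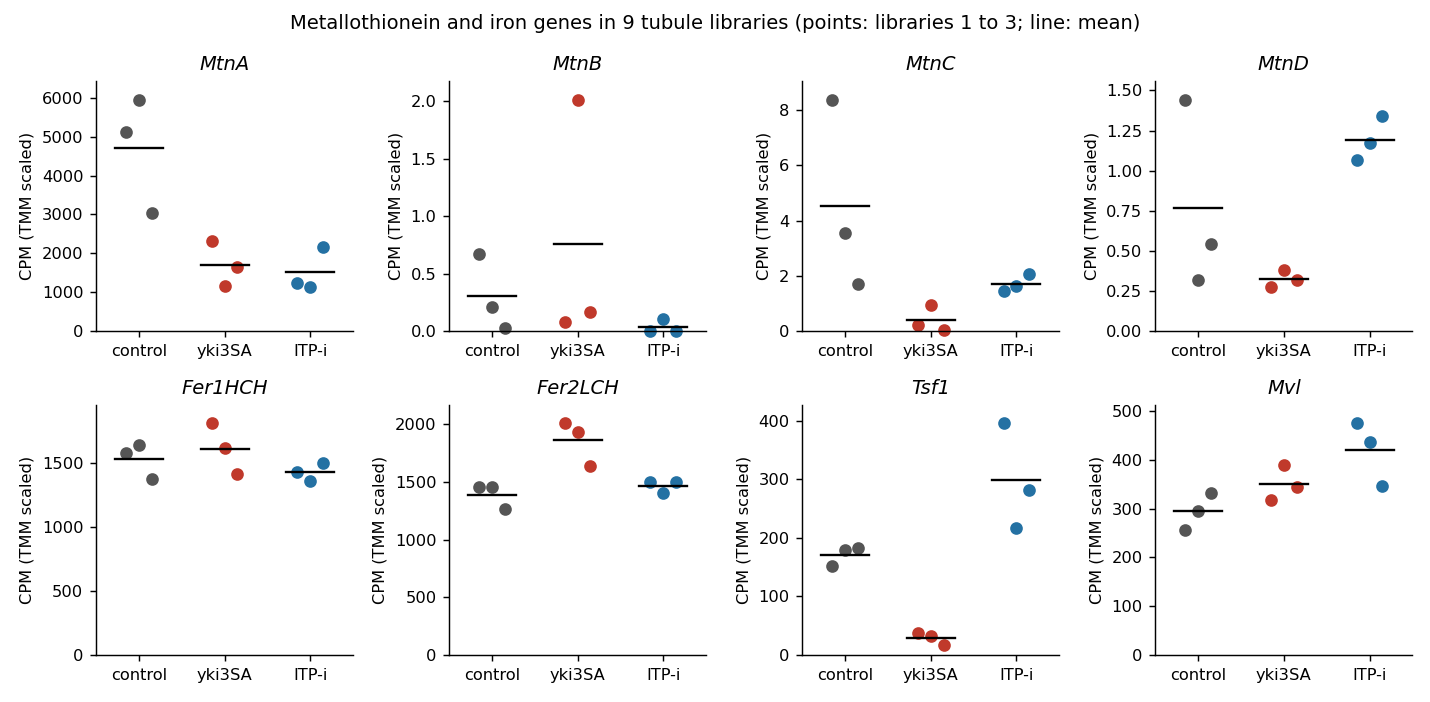
CPM (TMM scaled) of each of the 8 genes in every library, with 1 panel per gene, points for libraries 1 to 3 of each group and a line for the group mean. Tsf1 is lowest in the 3 yki3SA libraries and highest in the 3 ITP-i libraries, MtnA is highest in the 3 control libraries, and MtnB, MtnC and MtnD have axes that end below 10 CPM.

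MtnA (FBgn0002868, chromosome arm 3R) was by far the most abundant metallothionein of these libraries. It made up 99.5% to 99.97% of the counts of the 6 metallothionein genes of the fly in each library and 0.110% to 0.566% of all counts. Per length of exon it was also the most abundant of the 8 genes, at 6726 ± 2135 CPM per kb in control, where Fer2LCH was at 844 ± 65.0 and Fer1HCH at 644 ± 57.7 CPM per kb. In control its level was 5123, 5951 and 3050 CPM, which placed it between rank 12 and rank 30 of all genes. It was at 2313, 1165 and 1646 CPM in the yki3SA libraries and at 1239, 1145 and 2161 CPM in the ITP-i libraries. All control libraries lay above all libraries of both other groups, which overlapped each other.

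MtnA fell 2.76-fold in yki3SA against control, from 4708 ± 1495 to 1708 ± 576 CPM (log2 -1.46, SE 0.34, adjusted p = 0.010). In ITP-i it was 3.11-fold lower than in control (1515 ± 561 CPM, log2 -1.64, SE 0.34, adjusted p = 0.014). Between ITP-i and yki3SA no difference was called (log2 -0.17, 95% interval -0.91 to 0.57, adjusted p = 0.75), and the sign of that small value changed without yki3SA library 1, without ITP-i library 2 and with the fat body marker level in the fit. The call against control in ITP-i ended when its library 1 (log2 -1.51, adjusted p = 0.064) or library 2 (log2 -1.48, adjusted p = 0.062) was left out. The call in yki3SA held without each library in turn. Fits that also held the fat body or the gut marker level left few calls among all genes in yki3SA against control, 13 and 253, and both marker sums were without overlap between these groups. In them the yki3SA value was -3.92 (adjusted p = 0.34) and -1.26 (adjusted p = 0.47), and the ITP-i value against control was -1.92 (adjusted p = 0.0046) and -1.57 (adjusted p = 0.060).

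MtnC (FBgn0038790, 3R) was counted 337, 132 and 57 times in the control libraries, 8, 42 and 3 times in the yki3SA libraries and 58, 64 and 88 times in the ITP-i libraries. In CPM this is 8.38, 3.54 and 1.72 in the controls, 0.218, 0.940 and 0.0502 in the yki3SA libraries and 1.47, 1.63 and 2.07 in the ITP-i libraries. The yki3SA libraries were below all others, while ITP-i overlapped control. MtnC fell in yki3SA, from 4.55 ± 3.44 to 0.403 ± 0.473 CPM (log2 -3.50, SE 0.90, adjusted p = 0.016). That call ended without control library 1 (log2 -2.73, adjusted p = 0.061) and without yki3SA library 1 (log2 -3.25, adjusted p = 0.061). Its value in ITP-i against yki3SA was 2.10 (95% interval 0.17 to 4.04, adjusted p = 0.11), and it was called by DESeq2 (log2 2.13, adjusted p = 0.025) and without yki3SA library 2 (log2 3.77, adjusted p = 0.022).

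MtnD (FBgn0053192, 3R) was rarer still, with 58, 12 and 18 counts in control, 10, 17 and 19 in the yki3SA libraries and 42, 46 and 57 in the ITP-i libraries. At 1.06, 1.17 and 1.34 CPM the ITP-i libraries were above the yki3SA libraries (0.273, 0.380 and 0.318 CPM), and the control libraries (1.44, 0.322 and 0.542 CPM) spread over both. MtnD rose in ITP-i against yki3SA (log2 1.87, SE 0.58, adjusted p = 0.047). This call was kept in 5 of 19 alternatives: among others it ended without any one yki3SA library (adjusted p = 0.090 to 0.11), without any one ITP-i library (0.094 to 0.10), without control library 3 (0.058) and with the replicate number as a block (0.069). The difference of yki3SA from control was not called (log2 -1.24, 95% interval -2.54 to 0.05, adjusted p = 0.13).

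MtnB (FBgn0002869, 3R), best known for its induction by copper and cadmium, was near the limit of detection. Its counts were 27, 8 and 1 in the controls, 3, 90 and 10 in the yki3SA libraries and 0, 4 and 0 in the ITP-i libraries. A single library, yki3SA library 2, held most of them. No test was made for it in the fit with the filter on low counts. DESeq2, which keeps the gene, called it lower in ITP-i against yki3SA (log2 -4.45, adjusted p = 0.024), and edgeR without the filter did not (log2 -4.37, adjusted p = 0.088).

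The remaining metallothioneins were at similar low levels. MtnE (FBgn0262146), the neighbour of MtnD on 3R, was counted 105, 27 and 8 times in the controls, 7, 99 and 4 times in the yki3SA libraries and 46, 69 and 84 times in the ITP-i libraries. It was not called in any comparison (adjusted p = 0.57 to 0.86), with 95% intervals as wide as -3.04 to 1.97 on the log2 scale for yki3SA against control. MtnF (FBgn0262858) had 2 counts over the control libraries, 12 over yki3SA and 14 over ITP-i, and an exon of the opposite strand's gene atl overlaps it.

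Within groups, the rare metallothioneins tended to be high in the same library. In control, library 1 held the most counts of MtnB, MtnC, MtnD and MtnE, and in yki3SA library 2 held the most of MtnB, MtnC and MtnE, but not of MtnD (17 counts, beside 19 in library 3). In ITP-i, library 3 held the most of MtnC, MtnD and MtnE, and library 2 the only counts of MtnB. MtnF was not highest in control library 1 (0 counts) or ITP-i library 3 (1 count). Control library 1, yki3SA library 2 and ITP-i library 3 were also the highest of their group for the gut enterocyte markers, which summed in libraries 1 to 3 to 1347, 539 and 761 CPM in the controls, 142, 242 and 68.2 CPM for yki3SA and 396, 254 and 630 CPM for ITP-i. The order below the highest library differed: control library 2 had a lower gut sum than library 3 but more counts of MtnB, MtnC and MtnE. Ovary markers were also highest in control library 1 (253 CPM) and ITP-i library 3 (139 CPM), but in yki3SA in library 3 (21.0 CPM). Fat body markers were also highest in yki3SA library 2 (456 CPM), but in control library 3 (5458 CPM) and ITP-i library 1 (3559 CPM). The part of any of these tissues was not tested. Few counts fell on lab, a defining gene of the copper cell region of the midgut, whatever the group. For libraries 1 to 3 they were 2, 0, 1 (control), 0, 0, 4 (yki3SA), then 12, 0, 2 (ITP-i). Vha100-4, a proton pump subunit of the copper cell region, was at 2.61, 3.62 and 4.01 CPM in ITP-i. Its level was 0.783 to 1.5 CPM in the other libraries. Vha100-4 was called higher in ITP-i against yki3SA (log2 1.65), as MtnD was, and against control (log2 1.65), and its part in the MtnD result was not tested. With the gut marker level in the fit, MtnC in yki3SA against control was at -0.55 (adjusted p = 0.88) and MtnD in ITP-i against yki3SA at 1.03 (adjusted p = 0.53). The gut sums did not overlap between the groups of either comparison, and this fit left far fewer calls among all genes. The lost calls therefore cannot tell MtnC or MtnD from other genes. MtnA was highest in library 2 of the controls, library 1 of yki3SA and library 3 of ITP-i, so that its highest library was that of the gut markers in ITP-i alone.

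Ferritin transcripts were abundant in every group. Fer1HCH (FBgn0015222) and Fer2LCH (FBgn0015221) are neighbours on 3R on opposite strands, and their annotated exons overlap at the shared end, where reads of both genes cannot be told apart because a strand setting is not given in the sources used here. Fer1HCH was at 1576, 1638 and 1376 CPM in the controls, 1811, 1614 and 1412 CPM in the yki3SA libraries and 1430, 1358 and 1497 CPM in the ITP-i libraries. The 3 groups overlapped. Its log2 fold change was 0.08 in yki3SA against control (95% interval -0.21 to 0.36, adjusted p = 0.69) and -0.17 in ITP-i against yki3SA (-0.46 to 0.11, adjusted p = 0.35). With total-count scaling these became 0.36 (adjusted p = 0.025) and -0.36 (adjusted p = 0.032), on a scale that shifts the median of all genes by 0.29 and -0.20.

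Fer2LCH was at 1454, 1453 and 1268 CPM in the controls, 2010, 1935 and 1636 CPM in the yki3SA libraries and 1502, 1401 and 1500 CPM in the ITP-i libraries. Every yki3SA library was above every library of the other groups, and control and ITP-i overlapped. The light chain rose 1.34-fold in yki3SA against control (log2 0.42, SE 0.12, adjusted p = 0.025). In ITP-i against yki3SA it was at -0.34 (95% interval -0.61 to -0.08, adjusted p = 0.068), and in ITP-i against control at 0.08 (-0.19 to 0.34, adjusted p = 0.76). The first of these was called lower with total-count scaling (log2 -0.53, adjusted p = 0.0042) and without yki3SA library 3 (log2 -0.42, adjusted p = 0.048). The yki3SA call ended with DESeq2 size factors (log2 0.37, adjusted p = 0.055), without the filter (0.41, adjusted p = 0.072), without any one control library (0.33 to 0.42, adjusted p = 0.068 to 0.13), without yki3SA library 1 or 2 (0.33 and 0.36) and without ITP-i library 2 (0.39). It also ended with either marker level in the fit, fat body or gut (log2 0.35, adjusted p = 0.99, and 0.66, adjusted p = 0.23). Both marker sums were without overlap between yki3SA and control, and these fits left few calls among all genes. This loss therefore cannot tell Fer2LCH from other genes.

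The balance of the ferritin subunits is free of scaling between libraries, since both genes are counted in the same library. The ratio of Fer2LCH to Fer1HCH counts was 0.922, 0.887 and 0.921 in the controls, 1.11, 1.20 and 1.16 in the yki3SA libraries and 1.05, 1.03 and 1.002 in the ITP-i libraries. The groups were ordered without overlap, with ITP-i between control and yki3SA. The mean ratio was 0.910 ± 0.0202 in the controls, 1.16 ± 0.0447 in yki3SA and 1.03 ± 0.0245 in ITP-i (SD, n = 3). Each pair of groups reached p = 0.1 in a two-sided exact permutation test, the smallest p that 3 libraries against 3 allow. In CPM of single genes, libraries of the same groups do not overlap for 45.8% of all genes tested in yki3SA against control. The share is 41.8% in ITP-i against yki3SA and 30.7% in ITP-i against control. No such share was computed for ratios of 2 genes or for an order over all 3 groups. Per length of exon, joined over all annotated transcripts (2376 bases for Fer1HCH and 1648 for Fer2LCH), the light chain was the more abundant in every library, by 1.28 to 1.73 times. In the controls this order rests on the lengths, since the ratio of counts there was below 1. Which transcripts were expressed was not tested, and the lengths include the overlapping end.

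**Figure D2:**
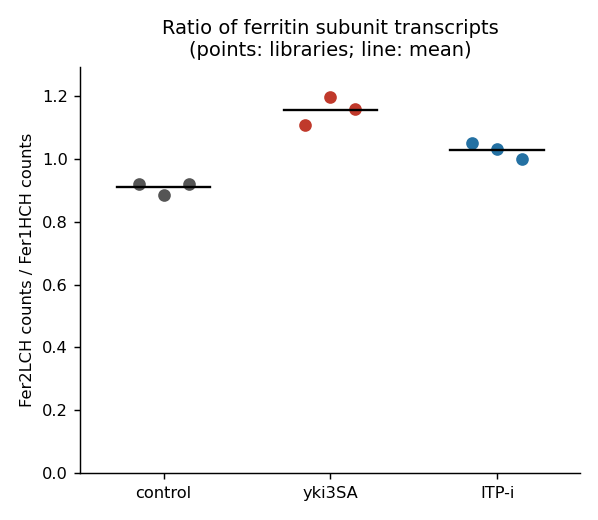
Ratio of Fer2LCH counts to Fer1HCH counts (no unit) in each library, with points for libraries and a line for the group mean. The 3 control libraries lie below 1, the 3 ITP-i libraries between 1.002 and 1.05 and the 3 yki3SA libraries at 1.11 or more.

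Tsf1 (FBgn0022355, X chromosome) had the largest fold change between ITP-i and yki3SA among the 7 tested genes. It was at 151, 180 and 183 CPM in the controls, 38.0, 32.0 and 16.1 CPM in the yki3SA libraries and 396, 218 and 283 CPM in the ITP-i libraries. No 2 groups overlapped: every yki3SA library was below every control library and every ITP-i library above. Tsf1 fell 5.97-fold in yki3SA against control (log2 -2.58, SE 0.32, adjusted p = 3.1e-04). In ITP-i against yki3SA it rose 10.4-fold, from 28.7 ± 11.3 to 299 ± 90.2 CPM (log2 3.38, SE 0.33, adjusted p = 2.0e-04). Its excess in ITP-i over control (1.74-fold, log2 0.80, 95% interval 0.14 to 1.47) did not pass the test (adjusted p = 0.13), and passed with DESeq2 (adjusted p = 0.047) and without yki3SA library 3 (adjusted p = 0.038).

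The summed level of the fat body markers was, like Tsf1, lowest in the 3 yki3SA libraries. Of the 16, 8 fell and 1 rose in yki3SA against control, and 7 rose and 2 fell in ITP-i against yki3SA. Yp2, a yolk protein gene on the fat body list, was at 697 to 1840 CPM in the controls, 38.4 to 71.9 CPM in the yki3SA libraries and 687 to 1234 CPM in the ITP-i libraries, so that ITP-i overlapped control for Yp2 and not for Tsf1. The summed ovary markers were also lowest in the 3 yki3SA libraries and overlapped between control and ITP-i. The part of other organs in the level of Yp2 was not tested. With the fat body marker level in the fit, Tsf1 was at -1.59 in yki3SA against control (adjusted p = 0.95) and at 2.50 in ITP-i against yki3SA (adjusted p = 0.73). With the gut marker level it was at -1.89 (adjusted p = 0.16) in the first, and stayed called in the second. Both marker sums separated yki3SA from the other groups without overlap, and these fits left far fewer calls among all genes. The lost calls therefore cannot tell Tsf1 from other genes. Fewer cells of a type and less RNA per cell cannot be told apart in these bulk libraries.

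**Figure D3:**
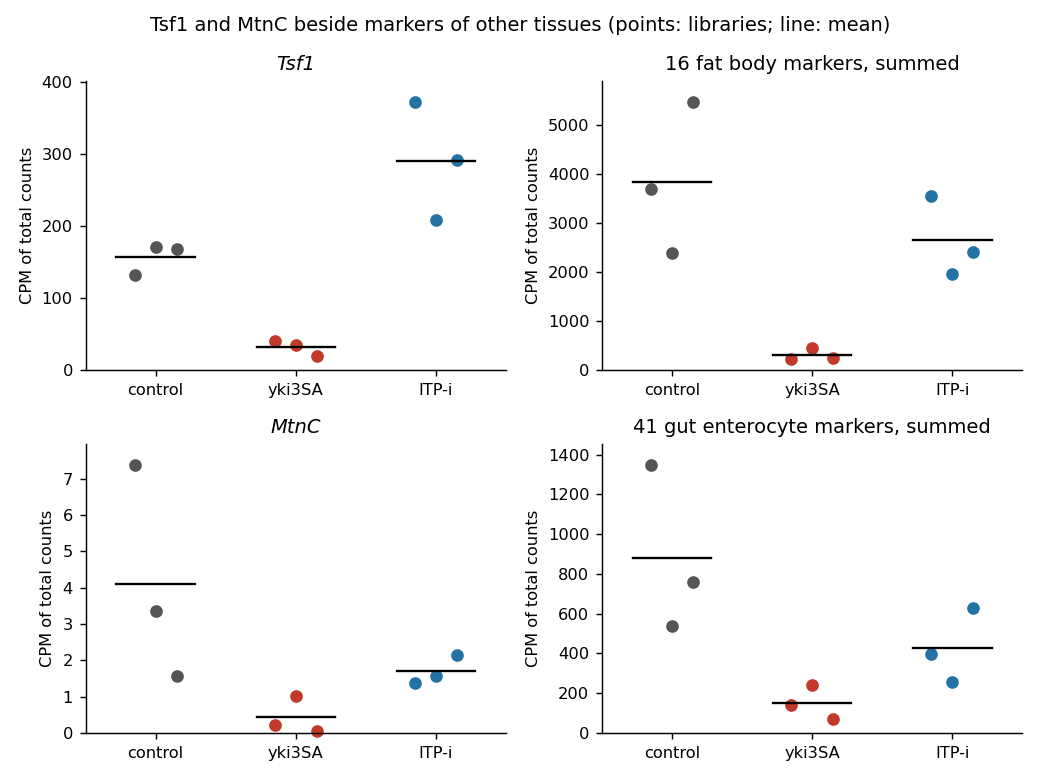
Tsf1 beside the summed level of 16 fat body markers, and MtnC beside that of 41 gut enterocyte markers, all in CPM of total counts, with points for libraries and a line for the group mean. In the Tsf1 panel the ITP-i libraries lie above control, and in the fat body panel they overlap control.

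Mvl (FBgn0011672, 3R) was at 256, 295 and 332 CPM in the controls, 317, 389 and 345 CPM in the yki3SA libraries and 475, 436 and 347 CPM in the ITP-i libraries. ITP-i was above control in all libraries, and yki3SA overlapped both. Its log2 fold change was 0.25 in yki3SA against control (95% interval -0.09 to 0.59, adjusted p = 0.24), 0.26 in ITP-i against yki3SA (-0.08 to 0.60, adjusted p = 0.25) and 0.51 in ITP-i against control (0.17 to 0.85, adjusted p = 0.064). The first passed with total-count scaling (log2 0.54, adjusted p = 0.015), under which 6 of the 8 genes were called in yki3SA against control. That scaling called 4216 genes there, 77.9% of them higher, and shifted the median of all genes by 0.29. The value in ITP-i against control passed with DESeq2 (log2 0.49, adjusted p = 0.026), with total-count scaling (0.59, adjusted p = 0.028), when ITP-i library 3 was left out (0.63, adjusted p = 0.031) and when yki3SA library 3 was left out with it (0.63, adjusted p = 0.040).

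**Figure D4:**
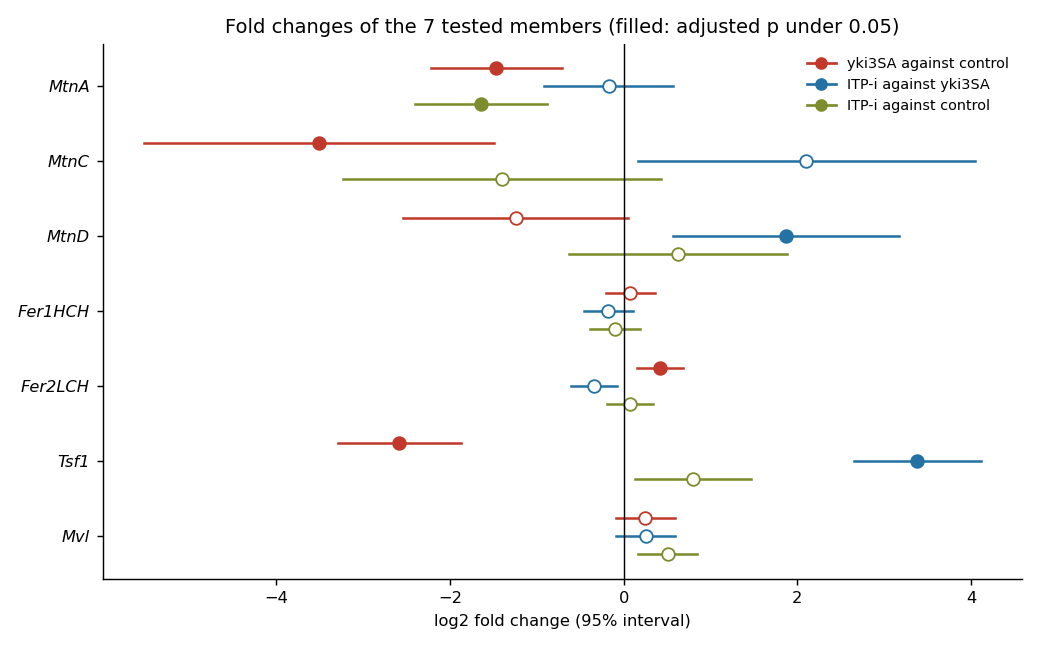
Log2 fold change with its 95% interval for the 7 tested genes in the 3 comparisons, filled where the adjusted p was under 0.05. Tsf1 lies at -2.58 and 3.38, MtnA is below 0 in both comparisons with control, and the ferritin and Mvl intervals are narrow and close to 0.

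For each of the 7 tested genes, the 3 genes with the most similar profile were found. Likeness was taken as the root mean square difference of log2 CPM over the 9 libraries, each gene centred on its own mean, among tested genes of at least 10 CPM. The nearest to Tsf1 (whose own spread around its mean was 1.51) were CG13311 and CG30371 at 0.39 and 0.40 and tobi, a glucosidase gene, at 0.41. Nearest to MtnA (spread 0.84) were Phm, GstD1 and CG9119 at 0.41 to 0.43, of which GstD1, a glutathione S-transferase gene, was at 867, 545 and 380 CPM by group (control, yki3SA, ITP-i). Nearest to MtnC (spread 1.65) was the gut trypsin gene alphaTry at 0.56, at 183, 28.5 and 120 CPM in the same order, followed by Fmo-1 and CG9259 at 0.71 and 0.73. CG31106, CG9416 and Snp lay nearest to MtnD at 0.36 to 0.39. Dpm1, CtsB and CG13887 lay within 0.056 to 0.061 of Fer2LCH, Vps29, CG14292 and Hsdl2 within 0.051 to 0.072 of Fer1HCH, and CG3308, Evi5 and CG17124 within 0.13 to 0.15 of Mvl. All these profiles share the same libraries and scaling.

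Other genes of metal handling were read from lists chosen by function. MTF-1, the activator of the metallothionein genes, was at 36.8 ± 4.97, 38.9 ± 3.05 and 43.0 ± 6.63 CPM by group (control, yki3SA, ITP-i) and was not called in any comparison (adjusted p = 0.41 to 0.71). No test of a list was made. Over all genes tested, 16.2% rose and 14% fell in yki3SA against control, and 10.6% and 10.1% in ITP-i against yki3SA. In ITP-i against control these shares were 6.37% and 4.14%. Of 10 tested genes of copper handling, 1 rose and 2 fell in yki3SA against control, and 1 rose and 2 fell in ITP-i against yki3SA. The extracellular superoxide dismutase gene Sod3 rose from 125 ± 8.66 to 194 ± 13.3 CPM and fell in ITP-i against yki3SA to 97.8 ± 9.61 CPM (log2 0.63 and -0.99, adjusted p = 0.0027 and 4.6e-04). Atox1, a copper chaperone, fell from 63.7 ± 3.58 to 50.3 ± 4.78 CPM and rose in ITP-i against yki3SA to 67.5 ± 4.56 CPM (adjusted p = 0.036 and 0.021). Both calls ended with total-count scaling, and without yki3SA library 2 or 3 or ITP-i library 1; the first also ended without control library 1 or 3 and the second without ITP-i library 2. Ctr1A, the copper importer, fell from 40.4 ± 1.59 to 32.8 ± 2.28 CPM (adjusted p = 0.044), and the call ended with total-count scaling and without any one control library, yki3SA library 2 or 3 or ITP-i library 1 or 3. Ccs, which delivers copper to superoxide dismutase 1, fell in ITP-i against yki3SA from 57.3 ± 1.11 to 35.3 ± 10.7 CPM (adjusted p = 0.040), and that call ended without any one yki3SA library and without ITP-i library 1 or 2 or control library 3. None of the 10 was called in ITP-i against control by edgeR, and 2, Ctr1A (log2 -0.23) and Sod3 (log2 -0.36), had an unadjusted p under 0.05.

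Of 10 tested genes of iron handling outside the 8, 2 rose and 2 fell in yki3SA against control, where 16.2% of all genes rose and 14% fell. CG1275 and nemy, both of the cytochrome b561 family of membrane reductases, went in opposite directions, from 215 ± 15.2 to 317 ± 31.2 CPM and from 1931 ± 341 to 950 ± 126 CPM (adjusted p = 0.0048 and 0.0026). The transferrin relative Tsf3 rose from 3.30 ± 0.613 to 7.41 ± 1.82 CPM (log2 1.16, adjusted p = 0.010), against the direction of Tsf1. Mco1, a multicopper oxidase gene, fell from 128 ± 27.4 to 64.4 ± 5.77 CPM and rose in ITP-i to 107 ± 20.4 CPM (adjusted p = 0.0033 and 0.021), the second call ending without yki3SA library 1 or 3 or ITP-i library 1 or 2. CG1275 fell in ITP-i against yki3SA to 210 ± 7.49 CPM (adjusted p = 0.0058). Fer3HCH, the mitochondrial ferritin gene, had 3 counts over the control libraries, 5 over yki3SA and 1 over ITP-i and was not tested. In ITP-i against yki3SA 1 gene of this list rose and 2 fell, and in ITP-i against control none rose and Mco3 fell. Of all genes, 10.6% rose and 10.1% fell in the first of these comparisons, and 6.37% and 4.14% in the second. The median log2 fold changes of this list were -0.06, -0.07 and 0.00 in the 3 comparisons, and those of the copper list -0.04, 0.08 and -0.10.

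Mco3, a second multicopper oxidase gene linked to iron balance in the fly, was almost lost in ITP-i. It was counted 5497, 2274 and 4834 times in the controls, 2024, 3625 and 4315 times in the yki3SA libraries and 15, 10 and 22 times in the ITP-i libraries. Its level was 114 ± 46.5, 69.5 ± 13.2 and 0.385 ± 0.132 CPM (log2 -7.48, SE 0.43, adjusted p = 1.6e-05 against yki3SA, and log2 -8.20, SE 0.44, adjusted p = 5.6e-06 against control), and both calls held under all 19 alternatives. The coding genes next to Mco3 on 3R were low in the same libraries: Sodq at 77.7, 58.9 and 0.741 CPM by group (control, yki3SA, ITP-i), CG31091 at 124, 62.8 and 0.187 CPM and CG31089 at 54.1, 24.4 and 0.565 CPM. The next coding genes outward had counts in ITP-i and differed from yki3SA in opposite directions: CG5913 fell from 31.7 to 13.9 CPM (log2 -1.19, adjusted p = 0.0016) and kumpel rose from 2817 to 5478 CPM (log2 0.96, adjusted p = 0.0040). These neighbours were looked up after the value of Mco3 was seen. The ITP-i libraries are the ones not marked as re-analysed.

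Of 9 heme genes tested, 2 rose and 1 fell in yki3SA against control, where 16.2% of all genes rose and 14% fell. Alas, which makes the first intermediate of heme, fell from 103 ± 8.31 to 66.7 ± 2.0 CPM (log2 -0.63, adjusted p = 0.0017). Urod, a later enzyme of the same path, rose from 36.9 ± 5.68 to 60.8 ± 5.06 CPM (adjusted p = 0.0025), and Ho, the heme oxygenase that frees iron from heme, rose from 21.3 ± 4.63 to 39.6 ± 8.02 CPM (adjusted p = 0.0074). None rose and 2 fell in ITP-i against yki3SA: FeCH, the ferrochelatase that inserts iron into heme, from 48.6 ± 2.03 to 33.2 ± 1.90 CPM (adjusted p = 0.0075), and Ho to 25.2 ± 3.25 CPM (adjusted p = 0.040), a call lost without any one yki3SA or ITP-i library or control library 2. In ITP-i against control, Urod was called higher (51.1 ± 1.96 CPM, adjusted p = 0.041) and Pbgs lower (24.8 ± 1.71 to 18.1 ± 1.16 CPM, adjusted p = 0.032), and of 17 alternatives without a marker level 5 kept the first call and 9 the second. Urod lost this call without any one yki3SA or ITP-i library or control library 2 or 3, and Pbgs without ITP-i library 1 or 2 or either of control libraries 1 and 3. Of all genes, 10.6% rose and 10.1% fell in ITP-i against yki3SA, and 6.37% and 4.14% in ITP-i against control. The median log2 fold changes of the heme list were 0.22, -0.25 and -0.28.

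Of 13 genes of iron-sulfur cluster assembly, 4 rose and none fell in yki3SA against control, where 16.2% of all genes rose and 14% fell. Nubp2 and Nubp1, which build clusters in the cytosol, rose from 38.9 ± 1.83 to 61.5 ± 13.3 CPM (adjusted p = 0.0081) and from 24.8 ± 2.26 to 36.1 ± 8.34 CPM (adjusted p = 0.032). Nfs1, the cysteine desulfurase that supplies sulfur, rose from 70.2 ± 7.32 to 90.7 ± 10.9 CPM (adjusted p = 0.045). The remaining gene that rose was galla-2 (log2 0.49, adjusted p = 0.048), named after its value was seen. Against yki3SA, 1 rose and 3 fell in ITP-i: the ferredoxin gene Fdx2 was higher (45.1 ± 7.74 to 67.8 ± 6.40 CPM, adjusted p = 0.022), and Nfs1, galla-2 and MagR were lower (adjusted p = 0.040, 0.041 and 0.047), each of the 3 calls kept in 4 or 5 of 17 alternatives without a marker level. Nubp2 kept its call in 17 of the 17, Nubp1 in 9 and Nfs1 in 3. Nubp1 lost it without any one control library, yki3SA library 1 or ITP-i library 1 or 2, and Nfs1 without any one of the 9 libraries. In ITP-i against yki3SA, Nfs1 lost its call without each library but control 1, galla-2 without each but ITP-i 3, and MagR without each but yki3SA 2. Fdx2 was also higher in ITP-i against control (log2 0.66, adjusted p = 0.020). Its first call ended without yki3SA library 2 or 3 or ITP-i library 1 or 2, and its second without ITP-i library 1 or 2 or either of control libraries 2 and 3. Of all genes, 10.6% rose and 10.1% fell in ITP-i against yki3SA, and 6.37% and 4.14% in ITP-i against control. The median log2 fold changes of the iron-sulfur list were 0.23, -0.38 and -0.04 in the 3 comparisons. Of all these calls of the 4 lists, those of Mco3 held with either marker level in the fit, and those of CG1275 and Sod3 in ITP-i against yki3SA held with 1 of the 2.

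**Figure D5:**
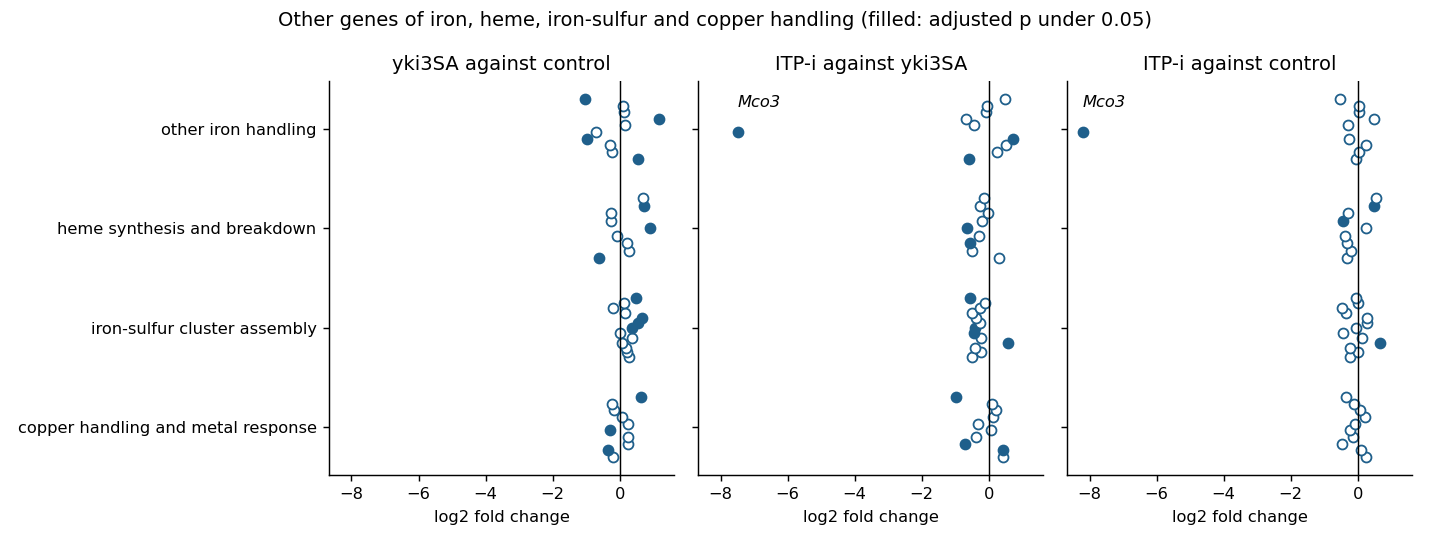
Log2 fold change of the tested genes of 4 lists (other iron handling, heme synthesis and breakdown, iron-sulfur cluster assembly, copper handling and metal response) in the 3 comparisons, 1 point per gene, filled where the adjusted p was under 0.05. Mco3 stands alone at -7.48 and -8.20 in the ITP-i comparisons, and the other genes lie between -1.02 and 1.16.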

How the data were processed

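Per the labels, RNA of Malpighian tubules was enriched for poly-A transcripts and made into Illumina TruSeq libraries. Values are whole-number counts of each gene in each library, deposited by the authors without normalization. TopHat, Cufflinks, HTSeq and DESeq are named in the submitters' processing notes, without role or version; the sources used here do not give the genome build, annotation or strand setting. Gene symbols, exon lengths and neighbours came from FlyBase names and Ensembl release 115 (BDGP6), and 17552 of 17611 identifiers had a symbol; coordinates are not used here.

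Genes were kept with filterByExpr, scaled with TMM factors and fitted over 9 libraries with a term for group (6 residual degrees of freedom) by the quasi-likelihood F-test of edgeR 4.0.16 in R 4.3.3. SE is the log2 fold change divided by the root of F. The test was run on simulated counts, drawn with dispersions estimated from these libraries, with changes in the yki3SA group alone and no batch. That run checks the steps of the fit and not whether its model holds for these data. Alternatives were DESeq2 1.42.0, DESeq2 size factors, total counts, no filter, robust = TRUE, 2-group fits, a replicate block, each library left out, library 3 of both yki3SA and ITP-i left out, and the log2 level of fat body or gut markers as a covariate. Likeness used log2(CPM + 0.1). Genes were named by rule: the 8 genes, MtnE, MtnF, yki and ITP, up to 3 called genes per list, direction and comparison with the smallest p, and the 3 most similar genes to each tested one; the genes beside Mco3, MTF-1, Fer3HCH and single marker genes were added. Members and lists were chosen with earlier results of these data known. Of 47 list names 46 were found. Python 3.11.15 with pandas 2.3.3 and matplotlib 3.10.9 made tables and plots. Replicate pairs differed by 48 to 140 times counting noise (chi-square per degree of freedom), so no library was a copy.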

Additional observations from a re-analysis of the deposited data

How the results depend on the processing

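With 3 libraries per group, the TMM fit called 3091, 2126 and 1077 genes in yki3SA against control, ITP-i against yki3SA and ITP-i against control, and 4, 2 and 1 of the 8 genes described here. Leaving out each library in turn gave 2177 to 3150, 1028 to 2047 and 642 to 1095 genes, and 2 to 4, 1 to 2 and 0 to 2 of the 8. In the first comparison control library 1 or yki3SA library 1 left 2 of the 8 (MtnA and Tsf1). In the third ITP-i library 1 or 2 left 0 of the 8 by edgeR (2 and 4 with an unadjusted p under 0.05, and 3 by DESeq2 on all libraries). The second fell to 1371 genes without yki3SA library 2 and to 1308 without ITP-i library 2. The third fell to 717 and 714 without control library 1 or 3 and to 683 without ITP-i library 2. The lowest counts, 1028 in the second and 642 in the third, came from leaving out a library other than those just named.

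With the fat body marker level in the fit 13, 4 and 706 genes were called, and 0, 0 and 1 of the 8 (1, 2 and 3 at an unadjusted p under 0.05); with the gut marker level 253, 337 and 600 genes, and 0, 1 and 0 of the 8 (2, 2 and 3). The cause was not tested. No share of all genes was computed at an unadjusted p under 0.05, so the counts at that threshold have no reference. In ITP-i against yki3SA DESeq2 called 4 of the 8, and no filter, robust = TRUE, and leaving out library 3 of both yki3SA and ITP-i (1362 genes) called 1, Tsf1. In ITP-i against control DESeq2 called 3, and total counts (1174 genes) and leaving out the same pair called 2. Counts of the 8 given without a number of all genes, as for DESeq2, have no reference here. Total-count scaling moved the share of called genes that were higher from 53.7% to 77.9%, from 51.2% to 28.2% and from 60.6% to 71.9%.

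The shared replicate numbers were not taken as a pairing: deviations of same-numbered libraries correlated at -0.08 to 0.17, not above 0.1 in every pair of any comparison. Differently numbered libraries correlated at -0.26 to 0.14. In ITP-i against yki3SA the same-numbered pairs were at 0.07, 0.08 and 0.17, so these values do not settle whether a weak pairing exists. With the replicate block 3189, 2287 and 1137 genes were called, and 4, 1 and 1 of the 8, MtnD losing its call. No called value of the 8 genes changed sign under any alternative. Of 399 values of single genes, 350 kept their side of the threshold, 36 lost a call and 13 gained one. MtnB, MtnC, MtnD, MtnE and MtnF rest on few counts, and their fold changes have wide errors.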
